A study of Mus musculus with 8 samples.

Results

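The genes described here encode cytokines of the IL-1, TNF, IL-6, IL-10 and IL-12 families. They are a named set of 10 genes (Il1a, Il1b, Il6, Il10, Il12a, Il12b, Il23a, Il27, Ebi3 and Tnf) among the 47937 Ensembl gene IDs that were counted, taken by family name and not by a threshold on a measured value, with earlier results of these data known. RNA was sequenced from bone marrow-derived dendritic cells (BMDCs), which were grown from mouse bone marrow with the growth factor GM-CSF for 8 days, and 8 libraries were analysed, 2 in each of 4 groups. The groups were WT and 3xGrk-/- BMDCs, each either left unstimulated or stimulated with 20 ng/ml LPS, a bacterial cell wall component that activates TLR4, for 24 h. The labels call the mutant a Grk 3xKO. As the study describes its BMDCs, 3xGrk-/- cells combined floxed alleles of Grk2 and Grk6, deleted by Vav-iCre, with a germline Grk3-/- allele. Its RNA sequencing methods name no Cre line. Vav-iCre is active in all blood cells from early progenitors on, so that deletion is not restricted to dendritic cells. Mice were adults of over 8 weeks, and WT controls lacked Cre. The study's methods describe technical replicates of the RNA extraction, 3 by their wording against the 2 libraries per group analysed here, and name no separate cultures or animals for the libraries of a group. All p-values here therefore measure only the spread between such libraries and not that between cultures or mice.

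The IL-1 cytokines and TNF are early alarm signals. IL-1α and IL-1β bind the same receptor and are blocked by the receptor antagonist encoded by Il1rn, and IL-1β has to be cleaved by an inflammasome before it acts. IL-6 and IL-10 are secreted single-chain or homodimeric cytokines, of which IL-10 restrains antigen-presenting cells. The IL-12 family consists of heterodimers that share chains: Il12a (p35) with Il12b (p40) gives IL-12, Il23a (p19) with Il12b gives IL-23, Il27 (p28) with Ebi3 gives IL-27, and Il12a with Ebi3 gives IL-35. Dendritic cells use IL-12 and IL-23 to steer T helper cells, so that the level of each chain limits which dimers can form.

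Promoters of these genes are known to bind NF-kB, AP-1, PU.1 and interferon-regulated factors, and the 4 windows below are shown because their genes took the opposite directions described later. Whether a motif relates to those directions was not tested. Each covers the 250 bases before a RefSeq start on GRCm38.p6, read on the strand of the gene, and capitals mark matches to a motif. The motifs searched on both strands, with overlapping matches counted, were kB (GGG, 5 bases of any kind, then CC), AP-1 (TGANTCA), ISRE (GAAA, 2 bases of any kind, then GAAA) and PU.1 (GAGGAAG). The window of Il12b is chr11:44399813-44400062 on the plus strand, that of Ebi3 chr17:55952373-55952622 on the plus strand, that of Il6 chr5:30012864-30013113 on the plus strand, and that of Il1b chr2:129371140-129371389 on the minus strand.
Il12b: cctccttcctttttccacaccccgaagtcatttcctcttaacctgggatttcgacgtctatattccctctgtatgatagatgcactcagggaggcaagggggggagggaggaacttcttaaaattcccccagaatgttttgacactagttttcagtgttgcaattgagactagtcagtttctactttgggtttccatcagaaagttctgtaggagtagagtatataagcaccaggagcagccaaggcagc
Ebi3: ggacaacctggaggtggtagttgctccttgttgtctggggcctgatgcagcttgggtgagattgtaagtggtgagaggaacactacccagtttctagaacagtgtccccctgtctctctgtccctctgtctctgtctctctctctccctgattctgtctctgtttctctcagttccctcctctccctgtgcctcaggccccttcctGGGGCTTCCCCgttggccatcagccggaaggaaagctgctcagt
Il6: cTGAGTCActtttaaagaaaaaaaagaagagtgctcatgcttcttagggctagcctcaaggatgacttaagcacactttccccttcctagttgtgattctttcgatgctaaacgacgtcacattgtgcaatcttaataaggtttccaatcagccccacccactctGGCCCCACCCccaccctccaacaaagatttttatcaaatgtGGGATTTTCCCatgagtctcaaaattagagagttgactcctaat
Il1b: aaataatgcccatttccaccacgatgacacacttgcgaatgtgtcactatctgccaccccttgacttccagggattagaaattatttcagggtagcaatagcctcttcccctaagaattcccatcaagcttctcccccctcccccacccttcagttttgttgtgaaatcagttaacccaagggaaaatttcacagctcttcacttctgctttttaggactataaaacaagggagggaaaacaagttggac

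The Ebi3 window held 2 overlapping kB matches, and the Il6 window held 3 kB matches, 2 of which overlapped, and 1 AP-1 match. The windows of Il12b and Il1b held no match to the 4 motifs as defined, and variants of the motifs were not searched for. RefSeq windows were matched for 7 of the 10 genes. A kB match occurred in 45.8% of the 32851 mouse promoter windows of this length, an AP-1 match in 6.75%, a PU.1 match in 10.6% and an ISRE match in 2.98%. The Tnf window held 1 kB and 1 PU.1 match, and the Il1a window 1 AP-1 and 1 PU.1 match. Il12a has 2 RefSeq starts, and the window of one held 2 overlapping kB matches while that of the other held none of the motifs.

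Cytokine mRNAs are commonly short-lived, and AU-rich stretches in the 3′ untranslated region (3′UTR) are read by decay proteins. The nonamer TTATTTATT, the core of such stretches, was found in the GENCODE M21 3′UTRs of 4 of the 10 genes, against 6.91% of 20636 coding transcripts. A 30-base window around it is shown for each, in DNA letters with the nonamer in capitals.
Tnf: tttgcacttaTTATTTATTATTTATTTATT
Il27: tcttggatatTTATTTATTtttaagaaatg
Il12a: ctatttatatTTATTTATTttctatttatt
Il23a: tagatgatggTTATTTATTctatttataag

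Tnf had 5 such nonamers in a run and 8 copies of the shorter pentamer ATTTA, and Il27 had 2 nonamers. Il6, Il10 and Il12b had 6 pentamers each without a nonamer, Il1b had 4, Il1a 3 and Ebi3 1. At least 5 pentamers were present in 7 of the 10 genes and in 18.9% of the coding transcripts.

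Libraries held 4713305 to 6933358 reads counted on genes. In 3xGrk-/- cells Grk2 was at 46.4% of the WT level without and 27.1% with LPS, Grk6 at 43.8% and 34.5%, and Grk3 at 78.1% and 75%, with reads of the whole gene counted, deleted exons or not. Replicate 2 of LPS-stimulated 3xGrk-/- cells carried 149727 reads on Gm42418, a gene that overlaps ribosomal RNA, against 26853 in replicate 1. The mean chi-square per gene between the 2 libraries of that group was 9.02, against 1.59 to 3.07 in the other groups, with Gm42418 included. The part of Gm42418 in the 9.02 is not given here, so the value does not show a difference across genes. Levels are given as CPM, the reads of a gene relative to the TMM-scaled size of its library, or as CPM per kilobase of exon (RPKM) where genes are compared with each other. With 2 libraries against 2, an exact permutation test of a single value cannot give a p below 0.333, so each call rests on a quasi-likelihood test in edgeR, at a Benjamini-Hochberg adjusted p under 0.05 over the whole table.

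All 9 dendritic cell markers were over 3 counts in every library. Their summed level, most of it Cd74 and the class II genes, ran from 25350 to 25600 CPM in unstimulated WT and from 13090 to 13370 in unstimulated 3xGrk-/- cells, and with LPS from 16250 to 17810 and from 14090 to 14350. In 3xGrk-/- cells 3 of the 9 were higher (Itgax, Flt3 and Ccr7) and 6 lower without LPS, and 2 were higher (Itgax and Flt3) and 7 lower with it. Of all genes tested, 22.1% were higher and 22.7% lower without LPS, and 24.7% and 24% with it. The 9 macrophage markers (Adgre1, Cd68, Cd14, Mertk, Fcgr1, Csf1r and the C1q genes) summed to 968 to 999.8 CPM in unstimulated WT and 1453 to 1513 in unstimulated 3xGrk-/- cells, and with LPS to 392.6 to 397.2 and 2749 to 2806. In 3xGrk-/- cells Fcgr1 and the C1q genes, 4 of the 9, were lower without LPS (22.7% of all genes) and the other 5 higher (22.1%), and with LPS 9 were higher (24.7%). The 6 eosinophil markers summed to 1136 to 1211 CPM in unstimulated WT and 60.08 to 67.61 in unstimulated 3xGrk-/- cells, and with LPS to 1066 to 1155 and 42.8 to 47.99. In 3xGrk-/- cells 5 of these 6 were lower without LPS (22.7% of all genes), Siglecf not being called, and 6 with it (24%). The 8 neutrophil markers summed to 698.4 to 742.4 against 515.2 to 532.2 CPM without and 335.1 to 391.4 against 185.6 to 202.2 with LPS, with 5 and 6 of the 8 called lower in 3xGrk-/- cells (22.7% and 24% of all genes). The 5 stromal markers summed to at most 8.891 CPM in the other 6 libraries and to 130.8 to 140.7 CPM in LPS-stimulated 3xGrk-/- cells, where Dcn had 699 and 698 counts. The 7 mast cell and basophil markers summed to 37.06 to 37.98 CPM in unstimulated WT and 46.97 to 51.4 in unstimulated 3xGrk-/- cells. With LPS they summed to 37.92 to 38.99 and 32.18 to 33.24 CPM. The T and NK cell markers summed to at most 1.542 CPM and the B cell markers to at most 0.9283 CPM in any library. In bulk RNA, a change in the number of cells of a type and a change in RNA per cell cannot be told apart, and the part of these markers in the cytokine values below was not tested.

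LPS raised most of these genes in both genotypes, and by very different amounts. Of the 9 genes tested in WT cells, 7 rose and none fell, against 60.3% of all 12541 genes tested, of which 29.5% rose and 30.8% fell. Of the 9 tested in 3xGrk-/- cells, 9 rose, against 55.4% of all genes, 28% rising and 27.4% falling. The libraries with and without LPS did not overlap for 8 of the 9 genes in WT (78.2% of all genes) and 9 of 9 in 3xGrk-/- cells (77.6%). Il10, Il12a and Il27 passed the filter on low counts of this fit only through stimulated libraries, and Il23a did not pass it, so these counts were partly set by the filter. Without those 3 genes, 5 of 6 rose in WT and 6 of 6 in 3xGrk-/- cells. Their median log2 fold change was 4.004 and 2.66, against -0.01 over all genes in both. Il1a, Il1b and Il6 responded most among the genes with counts in every library, and Tnf least.

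**Figure D1:**
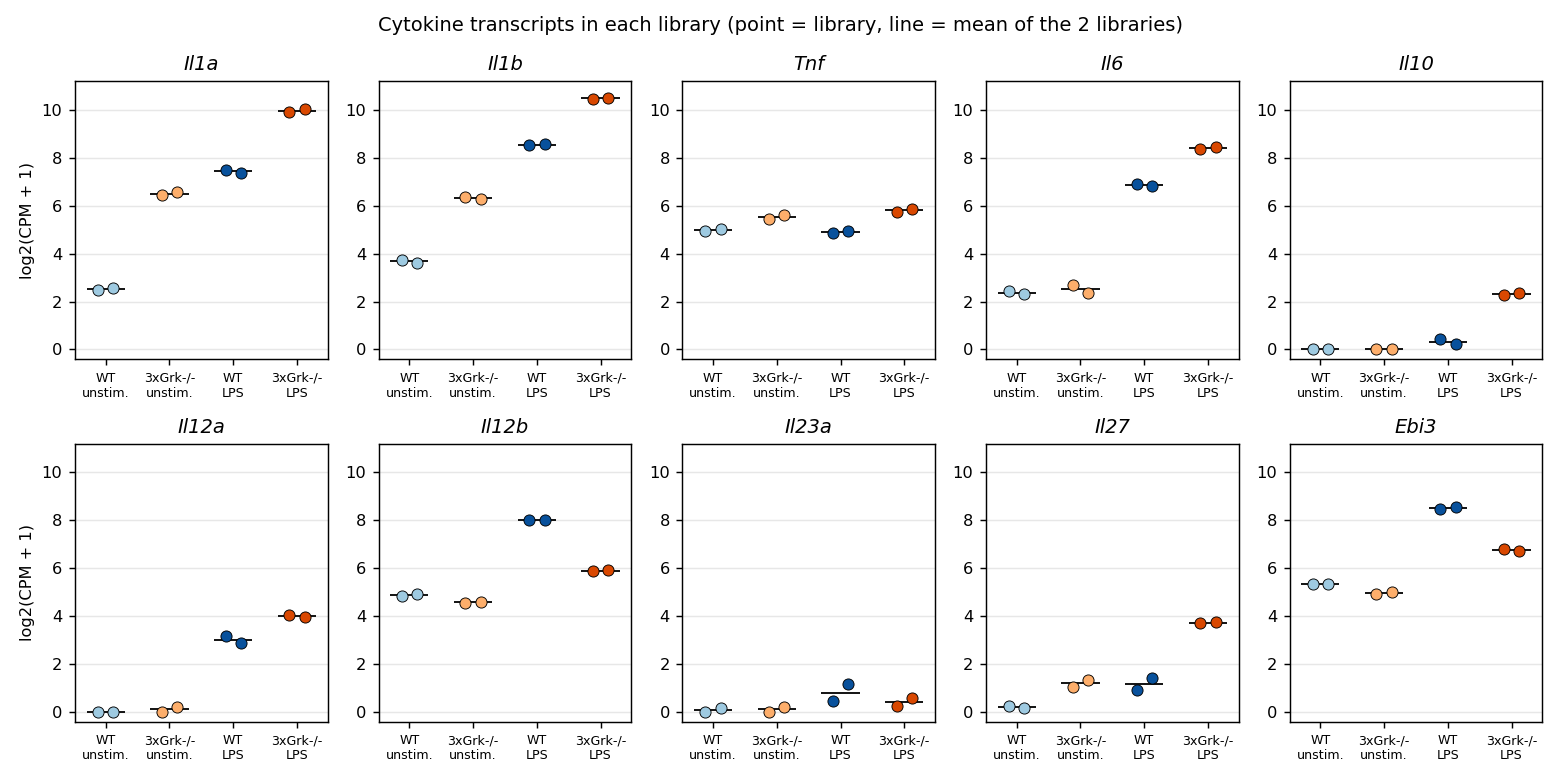
Level of each of the 10 cytokine genes in each library, as log2(CPM + 1) on the y axis, for unstimulated and LPS-stimulated WT and 3xGrk-/- BMDCs on the x axis, with points for libraries and a line for the mean of each group (n = 2). The 2 points of a group lie close together for the well-counted genes, Il12b and Ebi3 were highest in LPS-stimulated WT cells, and Il1a, Il1b, Il6, Il10, Il12a and Il27 were highest in LPS-stimulated 3xGrk-/- cells.

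Il1a encodes IL-1α, which is active without cleavage and is released from damaged cells. Its level was 4.59 and 4.91 CPM in unstimulated WT, 85.6 and 92.9 in unstimulated 3xGrk-/-, 180 and 164 in LPS-stimulated WT, and 958 and 1040 in LPS-stimulated 3xGrk-/- cells. No group overlapped another, and unstimulated 3xGrk-/- cells lay between unstimulated and stimulated WT cells. Il1a was 18.6-fold higher in 3xGrk-/- than in WT cells that saw no LPS (log2 fold change 4.22 ± 0.133, SE, adjusted p = 4.24e-214) and 5.82-fold higher with LPS (2.54 ± 0.0685, adjusted p = 1.35e-17). LPS raised it by 5.16 ± 0.110 on the log2 scale in WT and by 3.49 ± 0.0643 in 3xGrk-/- cells. The genotype difference was therefore smaller with LPS than without it, by 1.68 on the log2 scale (interaction -1.68 ± 0.156, adjusted p = 1.19e-09).

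Il1b, whose product needs cleavage by caspase-1, followed the same order. Its level was 12.4 and 11.1 CPM in unstimulated WT, 81.1 and 77.4 in unstimulated 3xGrk-/-, 369 and 377 in LPS-stimulated WT, and 1417 and 1454 in LPS-stimulated 3xGrk-/- cells, again without overlap. Without LPS the genotypes differed 6.81-fold (log2 fold change 2.77 ± 0.112, adjusted p = 8.81e-131) and 3.85-fold with it (1.94 ± 0.0567, adjusted p = 5.04e-17). LPS raised Il1b 31.9-fold in WT and 18.1-fold in 3xGrk-/- cells, and the interaction was -0.82 ± 0.108 (adjusted p = 5.81e-07). Per length, Il1b exceeded Il1a 2.8- and 2.34-fold in the unstimulated WT libraries, while in unstimulated 3xGrk-/- cells the ratio was 0.981 and 0.863. With the longest transcript as length this turned, with a mean of 58.5 RPKM for Il1b and 45.2 for Il1a. The 2 genes lie on the minus strand of chromosome 2 (GRCm38, GENCODE M21), Il1a at 129299610-129309972 and Il1b at 129364570-129371139, with 54.6 kb between them. Antisense genes overlap both, Gm14023 with 2 to 10 counts and Il1bos with at most 29 counts per library. Il1bos was highest, at 29 and 28 counts, in the libraries where Il1b was highest. The libraries were made with a strand-specific kit, but the strand setting of the counting is not given in the sources used here, so that it is not known whether reads of these pairs were kept apart.

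Genes that antagonise or process IL-1 and TNF moved too, and in stimulated cells mostly upward. Of the 10 genes of this list, 6 were higher and 2 lower in unstimulated 3xGrk-/- cells (22.1% of the 12000 genes tested were higher and 22.7% lower), with a median log2 fold change of 0.31 against 0.00 over all genes. With LPS, 9 were higher and 1 lower (24.7% and 24% of 11830 genes), and the median was 0.71 against -0.01. Il1rn, which encodes the IL-1 receptor antagonist, had 84.6 and 90.4 CPM in unstimulated WT, 486 and 489 in unstimulated 3xGrk-/-, 145 and 138 in stimulated WT, and 1778 and 1837 in stimulated 3xGrk-/- cells. Its excess in 3xGrk-/- cells, unlike that of Il1a and Il1b, was larger with LPS (log2 fold change 2.47 ± 0.05 without and 3.68 ± 0.0630 with LPS, interaction 1.20 ± 0.0761, adjusted p = 4.64e-13). The decoy receptor Il1r2 was lower without LPS and higher with it (-1.15 and 0.63), and the inflammasome sensor Nlrp3 likewise (-0.43 and 0.78). Caspase-1 (Casp1) was higher in both (0.41 and 1.24). Il18bp, which binds IL-18, gave -0.15 ± 0.218 without LPS, which did not pass the test (adjusted p = 0.615), and 2.33 ± 0.109 with it. Sigirr, an inhibitory member of the IL-1 receptor family, was the 1 gene of the list that was lower with LPS (-0.68 ± 0.163).

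Tnf encodes a membrane-bound trimer that is shed by Adam17 with the help of Rhbdf2. Its level was 29.8 and 31.1 CPM in unstimulated WT, 42.5 and 48.3 in unstimulated 3xGrk-/-, 28.1 and 30.2 in LPS-stimulated WT, and 52.9 and 57.7 in LPS-stimulated 3xGrk-/- cells. The genotypes did not overlap at either stimulation, and the WT groups with and without LPS overlapped. Tnf was 1.48-fold higher in unstimulated 3xGrk-/- cells (log2 fold change 0.56 ± 0.103, adjusted p = 2.48e-07) and 1.90-fold higher in stimulated ones (0.92 ± 0.107, adjusted p = 3.17e-07). After 24 h of LPS, the log2 fold change in WT cells was -0.06 ± 0.115 (adjusted p = 0.652), and in 3xGrk-/- cells 0.29 ± 0.0967 (adjusted p = 0.0119). That second call was lost with DESeq2 (adjusted p = 0.101), with scaling by library size alone (0.07, adjusted p = 0.53), without unstimulated 3xGrk-/- replicate 1 (adjusted p = 0.178) and without stimulated 3xGrk-/- replicate 2 (adjusted p = 0.123). Scaling by library size moved the median of all genes by -0.23 in both responses, and with it the WT value became -0.28 (adjusted p = 0.0359). Relative to all genes, the responses of Tnf in both genotypes were therefore about as with TMM scaling. The interaction of Tnf was 0.36 ± 0.150 and did not pass the test (adjusted p = 0.0717). It did pass with at least 10 counts required in every library (adjusted p = 0.0444) and without unstimulated 3xGrk-/- replicate 2 (adjusted p = 0.047).

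The genes next to Tnf went the other way. Tnf lies on the minus strand of chromosome 17 at 35199381-35202007, with Lta at a distance of 1157 bases and Ltb at 3060 bases, and both encode lymphotoxin chains of the TNF family. Lta had 4.01 and 5.47 CPM in unstimulated WT and 2.99 and 2.78 in unstimulated 3xGrk-/- cells, and 9.62 and 11.3 against 0.727 and 1.30 with LPS. Ltb had 25.8 and 22.7 against 14.4 and 14.4 CPM without LPS and 2.72 and 4.64 against 0.909 and 0.649 with it. The log2 fold change of Lta was -0.74 ± 0.301 (adjusted p = 0.0315) without and -3.33 ± 0.338 with LPS, and that of Ltb -0.74 ± 0.142 (adjusted p = 1.00e-06) and -2.25 ± 0.467. The unstimulated call of Lta was lost under 9 of 14 alternatives, among them DESeq2 (adjusted p = 0.366), and without WT replicate 2 (adjusted p = 0.426) or either 3xGrk-/- library (adjusted p = 0.109 and 0.137). Both stimulated 3xGrk-/- values rest on few reads, 4 and 8 counts for Lta and 5 and 4 for Ltb, and with LPS both genes passed the filter on low counts only through the WT libraries, in which they were high.

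Il6 encodes a cytokine that acts on hepatocytes, B cells and T cells through gp130. It had 4.39 and 3.92 CPM in unstimulated WT and 5.39 and 4.17 in unstimulated 3xGrk-/- cells, which overlapped. With LPS it had 120.3 and 113 CPM in WT and 324 and 344 in 3xGrk-/- cells, which did not. The genotype difference was 0.22 ± 0.276 without LPS (adjusted p = 0.544) and 1.52 ± 0.0680 with it (2.87-fold, adjusted p = 7.10e-14). Il6 was the 1 gene of the 10 whose interaction passed the test above 0, at 1.30 ± 0.255 (adjusted p = 0.000198). LPS raised it by 4.81 ± 0.125 on the log2 scale in WT and by 6.11 ± 0.106 in 3xGrk-/- cells. Il6 lies on the plus strand of chromosome 5 at 30013114-30019981, and its promoter is the window with 3 kB matches printed above.

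Il10, the anti-inflammatory cytokine of the set, was read only in stimulated cells. All 4 unstimulated libraries were at 0 counts, LPS-stimulated WT had 2 and 1 counts, and LPS-stimulated 3xGrk-/- cells had 21 and 25 counts, at 3.82 and 4.05 CPM. The stimulated genotypes did not overlap, and the ratio of 3xGrk-/- to WT was 15.7, with an exact 95% interval of 5.06 to 79.1 that covers counting error only. In 3xGrk-/- cells LPS raised Il10 at least 16.4-fold, against a floor of 3 counts over the unstimulated libraries. In WT cells both groups lay at or under the floor and no fold can be given. Il10 lies on the plus strand of chromosome 1 at 131019845-131024974, 79.7 kb from Il19, a related cytokine that had at most 6 counts in any group.

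The chains of the IL-12 family split. Il12b and Ebi3 were lower in 3xGrk-/- cells, and with LPS Il12a, which completes IL-12 with Il12b, was higher. Il27, which completes IL-27 with Ebi3, was higher in level, but passed the filter on low counts only through the stimulated 3xGrk-/- libraries. Il23a was too low to test. Il12b had 27.5 and 29.7 CPM in unstimulated WT, 22.6 and 23.3 in unstimulated 3xGrk-/-, 255 and 261 in LPS-stimulated WT, and 58.9 and 59.2 in LPS-stimulated 3xGrk-/- cells. Ebi3 had 39.9 and 39.9, 29.9 and 30.9, 353 and 379, and 112 and 104 CPM in the same order. The groups of each gene did not overlap, and for both the widest gap between genotypes was with LPS.

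With LPS, Il12b was 4.37-fold lower (log2 fold change -2.13 ± 0.0732, adjusted p = 8.29e-16) and Ebi3 3.40-fold lower (-1.76 ± 0.0678, adjusted p = 5.20e-15) in 3xGrk-/- than in WT cells. Without LPS, the differences were -0.33 ± 0.123 for Il12b (adjusted p = 0.0196) and -0.39 ± 0.107 for Ebi3 (adjusted p = 0.000787). The unstimulated call of Il12b was lost with DESeq2 (adjusted p = 0.271), with no filter on low counts (adjusted p = 0.0549), and without WT replicate 2, 3xGrk-/- replicate 1 or 3xGrk-/- replicate 2 (adjusted p = 0.184, 0.119 and 0.0548). That of Ebi3 was lost with DESeq2 (adjusted p = 0.0757). LPS raised Il12b by 3.17 ± 0.0758 on the log2 scale in WT and by 1.37 ± 0.0946 in 3xGrk-/- cells, and Ebi3 by 3.20 ± 0.0710 and 1.82 ± 0.0827. The response in 3xGrk-/- cells was smaller for both genes (interaction -1.80 ± 0.129, adjusted p = 6.21e-12, for Il12b and -1.37 ± 0.115, adjusted p = 1.70e-10, for Ebi3). With a biological coefficient of variation (BCV) of 0.4 in place of the estimated spread, the response of Il12b in 3xGrk-/- cells (adjusted p = 0.198) and both interactions did not pass.

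Il12a had no count in 3 of the 4 unstimulated libraries and 1 count in the other. With LPS it had 44 and 41 counts in WT and 86 and 90 in 3xGrk-/- cells, at 7.98 and 6.34 against 15.6 and 14.6 CPM. The stimulated genotypes did not overlap and differed 2.12-fold (log2 fold change 1.08 ± 0.197, adjusted p = 9.97e-05). LPS raised Il12a at least 29.3-fold in WT cells, against the floor of 3 counts, and 188-fold in 3xGrk-/- cells, where the single unstimulated count leaves an exact 95% interval of 33.3 to 7460. No interaction can be estimated for Il12a or Il10, whose unstimulated groups were at or near 0.

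Il27 had 1 and 1 counts in unstimulated WT, 7 and 9 in unstimulated 3xGrk-/-, 5 and 11 in LPS-stimulated WT, and 66 and 77 in LPS-stimulated 3xGrk-/- cells. The genotypes did not overlap at either stimulation, while unstimulated 3xGrk-/- and stimulated WT cells overlapped. With LPS, the level of Il27 in 3xGrk-/- cells was 9.05 times that in WT cells (log2 fold change 3.18 ± 0.307). Il27 passed the filter on low counts only through the stimulated 3xGrk-/- libraries, in which it was high, so that its fold changes are given as values and not as support from a test. Without LPS, Il27 was not tested, and the ratio was 7.95 with an exact 95% interval of 1.87 to 71.3. The ratio of stimulated to unstimulated was 8.26 in WT cells, with an interval of 1.94 to 74.1, and the log2 fold change in 3xGrk-/- cells was 3.23 ± 0.298. Il27 lies on the minus strand of chromosome 7 at 126589010-126594941 and is overlapped by Apobr on the other strand, which had 446 to 804 counts, and whether reads of Apobr entered the count of Il27 was not tested. Apobr had 770 and 687 counts in unstimulated and 748 and 804 in stimulated 3xGrk-/- cells, while Il27 had 7 and 9 and then 66 and 77.

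Il23a, the chain of IL-23, passed the filter on low counts in no comparison. It had at most 1 count in each unstimulated library, 2 and 8 counts in LPS-stimulated WT, and 1 and 3 in LPS-stimulated 3xGrk-/- cells. The stimulated genotypes overlapped. The ratio of stimulated to unstimulated was 10.3 in WT (exact 95% interval 1.47 to 448) and 4.27 in 3xGrk-/- cells (0.422 to 210). A difference between genotypes was not tested.

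Per exon length, Il12b and Ebi3 were in large excess over Il12a and Il27 in stimulated WT cells, and much less so in stimulated 3xGrk-/- cells. Il12b exceeded Il12a 27.7- and 35.6-fold in the stimulated WT libraries and 3.26- and 3.51-fold in the stimulated 3xGrk-/- libraries. Ebi3 exceeded Il27 344- and 197-fold in the former and 8.24- and 7.35-fold in the latter. Ebi3 exceeded Il12a 65.2- and 88-fold in WT and 10.5-fold in both 3xGrk-/- libraries. For each of the 3 pairs the genotypes did not overlap. That restates the single genes, whose levels lay apart in opposite directions, and adds no support. Il27 had only 5 and 11 counts in stimulated WT cells. The values are ratios of mRNA, and no dimer was measured. Il12b lies on the plus strand of chromosome 11 at 44400063-44414033, Il12a on the plus strand of chromosome 3 at 68690644-68698547, Ebi3 on the plus strand of chromosome 17 at 55952640-55957022 and Il23a on the minus strand of chromosome 10 at 128296139-128298752, so that the chains of a dimer are encoded apart. Gm16712, which overlaps Ebi3 on the other strand, had 2 to 9 counts per library.

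**Figure D2:**
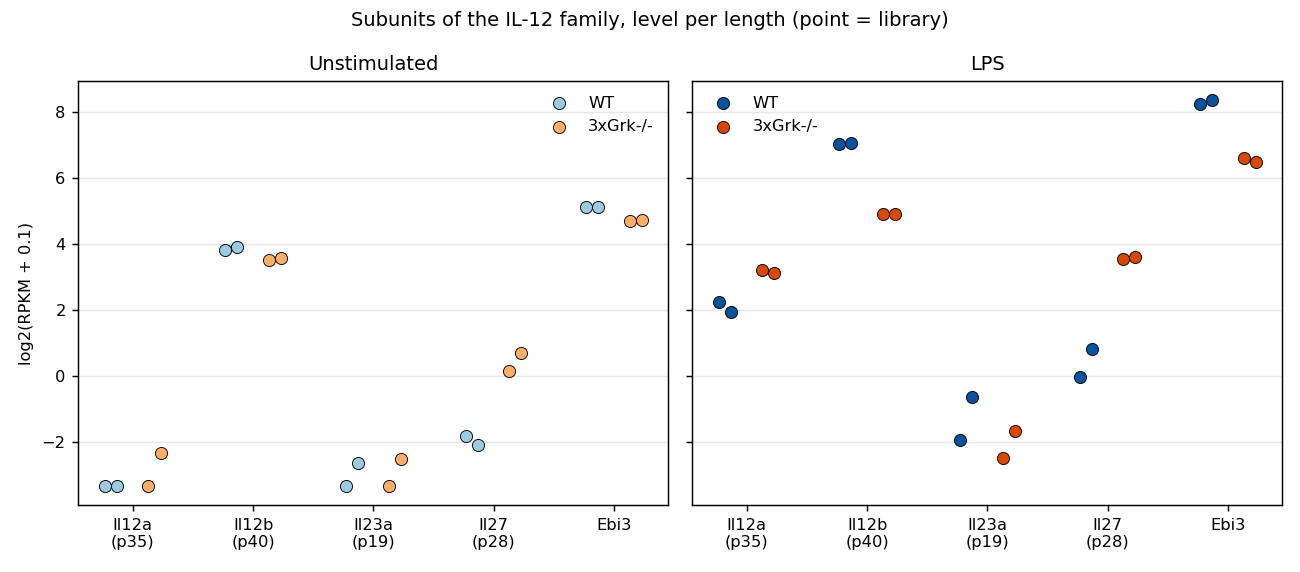
Level per exon length of the 5 genes of the IL-12 family, as log2(RPKM + 0.1) on the y axis, in each library without LPS (one panel) and with LPS (the other), with points for the 2 libraries of WT and of 3xGrk-/- cells. With LPS, Il12b and Ebi3 sit lower and Il12a and Il27 higher in 3xGrk-/- than in WT cells, which narrows the distance between them.

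Counted over the set, 5 of the 6 genes tested without LPS were called (44.7% of all genes), 3 higher in 3xGrk-/- cells (Il1a, Il1b and Tnf, against 22.1%) and 2 lower (Il12b and Ebi3, against 22.7%). The genotypes did not overlap for the same 5 genes (69.1% of all genes). Il10, Il12a, Il23a and Il27 did not pass the filter on low counts there. With LPS, 9 of the 9 genes tested were called (48.6% of all genes) and did not overlap (72.6%), 7 higher (24.7%) and 2 lower (24%), and Il23a was not tested. Il10 and Il27 passed that filter only through the group in which they were high, and without them 5 of 7 were higher. The median log2 fold change was 0.40 over the 6 genes without LPS and 1.08 over those 7 with it, against 0.00 and -0.01 over all genes. The interaction could not be estimated for Il10 and Il12a, and of the other 7 genes tested it passed for 5 (32.5% of all genes), higher for Il6 (16.5% of all genes) and lower for Il1a, Il1b, Il12b and Ebi3 (16%). For Il1a and Il1b the negative interaction marked a narrower excess in 3xGrk-/- cells, and for Il12b and Ebi3 a wider deficit.

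**Figure D3:**
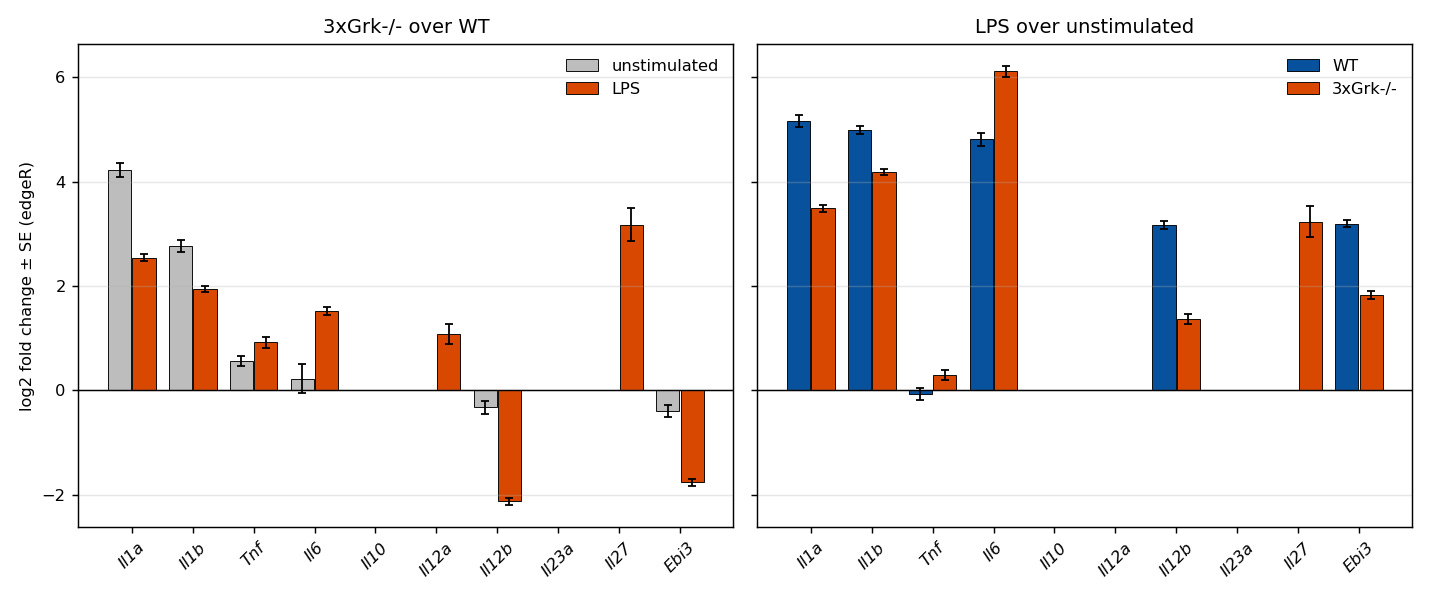
Log2 fold changes with standard errors for the cytokine genes, for 3xGrk-/- over WT without and with LPS (left) and for LPS over unstimulated in WT and in 3xGrk-/- cells (right). Left, Il1a, Il1b and Tnf lie above 0 at both stimulations, Il12b and Ebi3 below 0 and further from it with LPS. Genes with 3 counts or fewer in a group compared, and genes not tested, are not drawn.

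The order of levels differed between the groups. In unstimulated WT cells the RPKM ran from Ebi3 at 34.6 over Tnf at 18.6, Il12b at 14.5, Il1b at 6.16 and Il1a at 2.40 to Il6 at 1.71. In unstimulated 3xGrk-/- cells Il1a at 45.2 and Il1b at 41.6 led, and their order turned when the longest transcript was used as the length. They were followed by Tnf at 27.7 and Ebi3 at 26.4, whose libraries overlapped, and by Il12b at 11.7, Il6 at 1.97 and Il27 at 1.28. With LPS, WT cells had Ebi3 at 317, Il1b at 196, Il12b at 131, Il1a at 87.0, Il6 at 48.0, Tnf at 17.8, Il12a at 4.21 and Il27 at 1.28. Stimulated 3xGrk-/- cells had Il1b at 753, Il1a at 506, Il6 at 138, Ebi3 at 93.4, Tnf at 33.7, Il12b at 30.02, Il27 at 11.99, Il12a at 8.88 and Il10 at 3.00. Ebi3 thus led in both WT groups and an IL-1 gene in both 3xGrk-/- groups.

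Over the 8 libraries, Il12b and Ebi3 had the profiles most like each other among 9149 genes, with a root mean square difference of 0.184 on the log2 scale (Pearson's r = 0.992). Cd72 came next for both, at 0.311 and 0.237. For Il1b the closest profile was that of the neutrophil chemokine gene Cxcl1 (0.428), followed by Il1a (0.569), and for Il1a that of Il1b, followed by the complement gene Cfb (0.636). For Il6 the closest were the interferon-induced genes Ifit1 (0.199), Ifi213 (0.379) and Oasl1 (0.415). For Tnf, whose levels varied least, they were Mafg (0.045), Pfkl (0.087) and Scly (0.087). For the low-count genes the likeness depends on the prior count of 2: Itgb8 (0.393) was closest to Il12a, Pltp (0.258) to Il27 and Ifitm3 (0.254) to Il10. These likenesses describe 4 pairs of libraries and say nothing of shared control.

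The receptor chains for these cytokines were mostly higher in 3xGrk-/- cells after LPS. Without LPS, 5 of the 11 chains tested were higher (22.1% of all genes) and 1 was lower (22.7%), with a median log2 fold change of 0.09. With LPS, 8 of 12 were higher (24.7% of all genes) and 2 lower (24%), and the median was 0.62. The TNF receptor gene Tnfrsf1b had 319 and 317 CPM in unstimulated WT, 493 and 463 in unstimulated 3xGrk-/-, 601 and 626 in stimulated WT, and 2350 and 2311 in stimulated 3xGrk-/- cells. Its log2 fold change was 0.59 ± 0.0414 without and 1.92 ± 0.0536 with LPS (interaction 1.34 ± 0.0663). With LPS the other TNF receptor gene Tnfrsf1a (1.39 ± 0.1), the IL-1 receptor chains Il1r1 (1.32 ± 0.136) and Il1rap (1.82 ± 0.156) and the shared IL-6 and IL-27 chain Il6st (0.95 ± 0.0671) were higher as well. The lower ones with LPS were Il12rb2, a chain of the IL-12 receptor (-1.10 ± 0.0636), and Il10ra, the ligand-binding chain of the IL-10 receptor (-0.67 ± 0.0586). Il12rb2 was lower without LPS too (-0.74 ± 0.0670). With a BCV of 0.4, 0 chains passed without and 2 with LPS, and with a log2 fold change of at least 1 required, 0 and 5.

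Of 14 related cytokines, 7 were tested without LPS and 10 with it. Without LPS, 1 was higher (22.1% of all genes) and 3 lower (22.7%), with a median of -0.59. With LPS, 6 were higher (24.7%) and 3 lower (24%), but Il33, Il1f6 and Il22 passed the filter only through the 3xGrk-/- libraries, and Lta and Ltb only through the WT libraries, in which they were high. Without these 5 genes, 3 of 5 were higher and 1 lower, and the median was 0.96. Higher with LPS were Il1f9 of the IL-1 family (1.92 ± 0.125) and the IL-6 family members Osm (1.23 ± 0.107) and Clcf1 (0.96 ± 0.153). The IL-6 family member Lif (-0.75 ± 0.168) was lower.

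The regulators of cytokine mRNA decay did not move one way. Of 12 genes, 5 were higher (22.1% of all genes) and 2 lower (22.7%) in unstimulated 3xGrk-/- cells, with a median of -0.01. In stimulated ones 3 were higher (24.7%) and 2 lower (24%), shares near those of all genes, with a median of 0.00. Zfp36l2, a member of the family that binds AU-rich elements, stood out with 15.1 and 17.6 CPM in stimulated WT against 69.3 and 66.6 in stimulated 3xGrk-/- cells (log2 fold change 2.05 ± 0.116, adjusted p = 3.74e-12). Its founding member Zfp36 gave 0.17 ± 0.0502 without (adjusted p = 0.00171) and 0.13 ± 0.0624 with LPS (adjusted p = 0.1). Zc3h12a, whose product cleaves Il6 mRNA, gave 0.44 ± 0.0929 and 0.26 ± 0.0726, and the latter call was lost without either stimulated 3xGrk-/- library (adjusted p = 0.0581 and 0.0795).

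Among 20 transcription regulators of these genes, 12 were higher (22.1% of all genes) and 1 lower (22.7%) in unstimulated 3xGrk-/- cells, with a median of 0.29. In stimulated ones 8 were higher (24.7%) and 6 lower (24%), the latter near the share of all genes, with a median of 0.13. Cebpb, a regulator of Il6 and Il1b, had 26.6 and 12.2 CPM in unstimulated WT, 95.1 and 109 in unstimulated 3xGrk-/-, 18.9 and 22.3 in stimulated WT, and 205 and 146 in stimulated 3xGrk-/- cells. It was higher in 3xGrk-/- cells by 2.47 ± 0.0958 without and 3.08 ± 0.138 with LPS. The unstimulated WT libraries of Cebpb stood apart, and the difference was 3.06 without WT replicate 1 and 1.93 without WT replicate 2. Maf, a regulator of Il10 and of macrophage genes, was higher by 2.81 ± 0.223 and 3.43 ± 0.150. Irf8 and Irf4, which shape dendritic cell subsets, differed from these. Irf8, a regulator of Il12b, was higher without LPS (0.82 ± 0.0417) and lower with it (-0.59 ± 0.0532), with 278 and 294 against 507 and 507 CPM without and 1450 and 1498 against 999 and 963 with LPS. Irf4 was lower in both (-0.59 ± 0.0428 and -1.26 ± 0.0620). The NF-kB gene Nfkb1 was higher without LPS (0.42 ± 0.0376) and lower with it (-0.22 ± 0.0547), and the latter call was lost without stimulated 3xGrk-/- replicate 2 (adjusted p = 0.17).

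**Figure D4:**
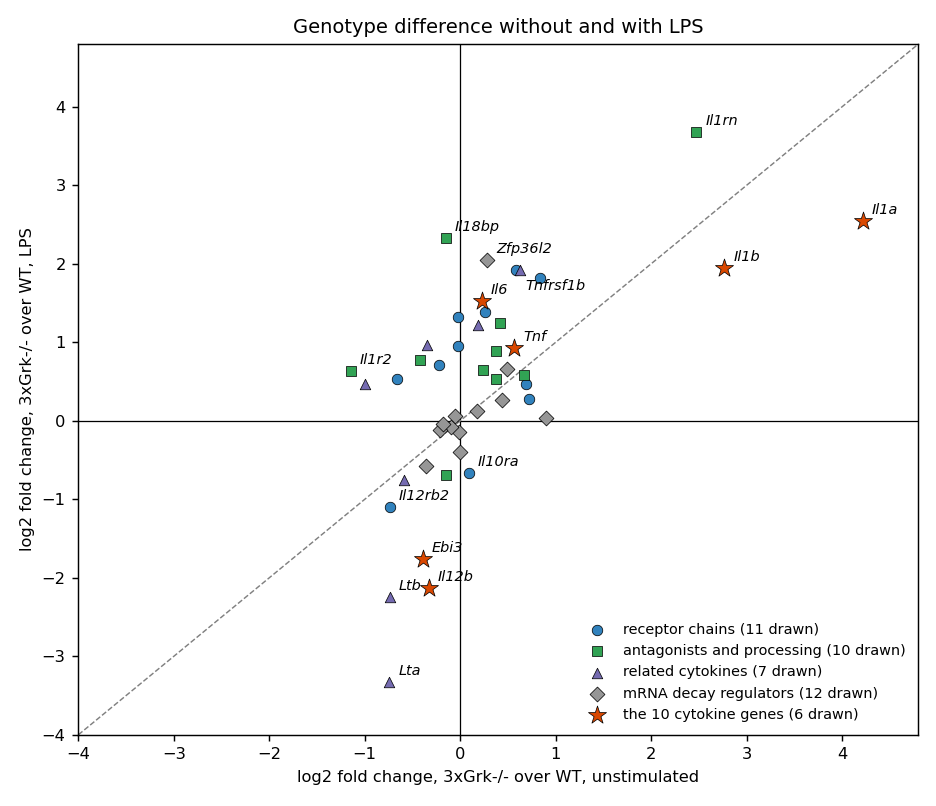
Log2 fold change of 3xGrk-/- over WT without LPS (x axis) against that with LPS (y axis), 1 point per gene tested in both, for 11 receptor chains, 10 antagonists and processing genes, 7 related cytokines, 12 decay regulators and 6 of the 10 cytokine genes, with a dashed line where both are equal. Il1a, Il1b and Il1rn lie far above 0 on both axes, while Il12b, Ebi3, Lta and Ltb lie below 0 on both and further below on the LPS axis.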

How the data were processed

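RNA of 8 BMDC libraries was measured by strand-specific RNA-seq, and groups were taken from the sample labels. The authors processed the reads with snakePipes 2.1.0, STAR 2.7.3a and featureCounts 2.0.0 on mm10. The annotation release and the strand setting are not given in the sources used here. The authors deposited raw read counts per gene, in 1 table without and 1 with LPS. Gene names, positions and exon lengths came from GENCODE M21 on GRCm38 (47224 of 47937 IDs were found, 39106 with the same version, and 8 of the 10 cytokine genes with the same version), and promoter sequences from RefSeq on GRCm38.p6.

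Genotypes were compared within each table with edgeR 4.0.16 in R 4.3.3 (TMM, filterByExpr, glmQLFit, glmQLFTest), and LPS responses and the interaction in one fit of the 8 libraries, with Benjamini-Hochberg adjustment over all genes and a threshold of 0.05. The interaction is the log2 genotype difference with LPS minus that without. A standard error is the unshrunken log2 fold change over the square root of F. Fits were also run on simulated counts, and the outcome is not reported here. A group with no count was set to 3 counts (floor), and for groups of 1 to 3 counts ratios carry an exact 95% interval. Lists of related genes are described by counts and medians. Another gene of the macrophage markers is not reported here. The cytokine genes and lists were chosen with earlier results of these data known. All 10 cytokine genes were named, and, for those tested, the 3 genes with the smallest root mean square difference of centred log2 CPM, among genes with a mean log2 CPM of at least 3. Alternatives were DESeq2 1.42.0, RLE factors, library size alone, no filter, at least 10 counts in every library, leaving out Gm42418, a biological coefficient of variation of 0.4, a log2 fold change of at least 1, a replicate block, a fit of all 8 libraries, leaving out each library, and the longest transcript as length.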

Additional observations from a re-analysis of the deposited data

Results flagged for a closer look

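The genotype difference between 3xGrk-/- and WT cells changed with LPS by a test of the interaction for 5 of the cytokine genes (edgeR's quasi-likelihood test, Benjamini-Hochberg adjusted p under 0.05). The change on the log2 scale was -1.68 for Il1a, -0.82 for Il1b, 1.30 for Il6, -1.80 for Il12b and -1.37 for Ebi3. Groups of 2 libraries are too small for a test for a single outlying library. The 2 libraries of LPS-stimulated 3xGrk-/- cells, on which these values rest in part, had the highest mean chi-square per gene (9.02 against 1.59 to 3.07 in the other groups). That mean includes Gm42418, with 26853 and 149727 reads in the 2 libraries, so it does not show a spread across genes.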

How the results depend on the processing

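Of the values of single cytokine genes under the alternatives, 72 of 84 kept direction and side of the threshold for the unstimulated genotype difference, 120 of 124 for the stimulated one, 147 of 150 for the LPS response in WT, 143 of 150 for that in 3xGrk-/- cells and 109 of 118 for the interaction, Il10 and Il12a left out. Of the 5 cytokine genes called without LPS, 3 were called with DESeq2, 2 with a biological coefficient of variation (BCV) of 0.4 and 2 with a log2 fold change of at least 1. Of the 5 interactions, 0 passed with a BCV of 0.4 in edgeR. At that BCV the stimulated genotype calls of Il6, Il12a and Tnf were lost as well (adjusted p = 0.121, 0.53 and 0.668), and so were the LPS responses of Il12b and Tnf in 3xGrk-/- cells (adjusted p = 0.198 and 1) and of Il27 in WT cells (adjusted p = 0.056). The cause was not tested. A BCV of 0.4 is far above the common values of 0.0306 to 0.0573 estimated here. Those values measure the spread between libraries described as technical replicates, and the spread between cultures or mice was not measured. Leaving out 1 library at a time gave 4 to 6 calls without LPS and 5 to 6 interactions. Such a fit leaves 1 group with a single library, which is assumed to vary like the other groups and adds no spread of its own, so these counts do not show stability against the spread within that group.

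Over all genes, DESeq2 called 3086 genes without LPS (5369 in edgeR) and 2643 interactions (4070). A BCV of 0.4 left 448 and 782 genes for the genotype without and with LPS, 1110 and 850 for LPS in WT and 3xGrk-/- cells, and 72 interactions. A log2 fold change of at least 1 left 1444, 1984, 2700, 2373 and 1375 in the same order. Of the lists, the genotype calls without and with LPS were 6 and 10 receptor chains, 8 and 10 antagonists and processing genes, 4 and 9 related cytokines, 7 and 5 decay regulators, and 13 and 14 transcription regulators. With a BCV of 0.4 they were 0 and 2, 1 and 2, 0 and 6, 0 and 1, and 2 and 2 in that order, and with a log2 fold change of at least 1, 0 and 5, 2 and 3, 1 and 7, 0 and 1, and 2 and 3. At least 10 counts in every library left 4 related cytokines with LPS, and DESeq2 left 2 without it. The sign turned for the fitted interaction of Il12a, which is no estimate, to 1.09 without unstimulated 3xGrk-/- replicate 2 (range from -2.13 when leaving out 1 library), and of Il27, to -0.012 without stimulated WT replicate 1 (range up to 0.88). It also turned for the unstimulated genotype differences of Il18bp, to 0.22 without WT replicate 2 (range from -0.37), and Il6st, to 0.012 without WT replicate 1 (range from -0.061). None of these 4 had passed the test.

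Same-numbered libraries showed no shared deviation, with correlations of deviations from -0.018 to 0.033 over 12541 genes. Such values cannot show whether libraries of the same number share a culture, animal or preparation. A fit with the replicate number as a block called the same number of cytokine genes in each comparison (5, 9, 7, 9 and 5) and 5292, 5654, 7438, 6793 and 3884 genes in all.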
